A study of Mus musculus with 32 samples.

Results

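Glycolysis and the cellular response to low oxygen are represented here by 32 genes, taken by symbol from the deposited expression table of 55492 rows. They comprise 16 glycolytic enzymes, 6 genes of lactate conversion and of sugar and lactate transport, and 10 regulators and hypoxia targets. The rule used gene symbols and no measured value, but the symbols were chosen with earlier results of these data known. Each symbol was found (33 rows carry one, since Aldoa has a second, low row that was left out), and all 32 members passed the filter on low values. The table holds polyadenylated RNA of mouse embryonic stem cells (day 0) and of retinal organoids grown from them for 2, 4 and 6 days, in 4 kinds of culture with 2 libraries per group, 32 libraries in all. WT is the Rx:GFP line. KO is Mettl3 KO, in which the gene for the catalytic subunit of the m6A RNA methyltransferase was knocked out. The other cultures carry WT MTL3-GRBD OE in Mettl3 KO, a METTL3 fusion overexpressed in the knockout, without dexamethasone (no Dex) or with it (Dex, 10 µM; a synthetic glucocorticoid). Organoid media of every line held AGN at 0.1 µM. The treatment protocol names Dex for 2, 4 and 6 days, while day 0 samples of the fusion line also carry a Dex label, which was followed here. No culture without the fusion received Dex, so an effect of Dex itself and one of the fusion protein cannot be told apart. The labels do not say how many clones were used.

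Glycolysis splits glucose into pyruvate and yields ATP without oxygen. Lactate dehydrogenase then converts pyruvate to lactate, which monocarboxylate transporters carry out of the cell. When oxygen is short, prolyl hydroxylases stop marking hypoxia-inducible factor (HIF) for destruction, and HIF raises the transcription of glucose transporters, glycolytic enzymes and its own hydroxylases. Pluripotent and early embryonic cells, and the retina itself, are known for strong glycolysis.

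Depth, estimated from the steps between low values, was 27.8 M to 51.3 M fragments per library (M, mega; median 36.6 M). A count of 0 allows up to 3 fragments, which on 2 kb of transcript correspond to 0.034 to 0.063 FPKM (fragments scaled by transcript length and library total), which covers counting error only. Pearson r of duplicates over genes was 0.9922 to 0.9955. The median coefficient of variation of the members between duplicates was 0.773% to 3.57% by group and was highest in WT at day 0. By the extraction protocol in the labels the duplicates had independent library preparations. They are not stated to be separate cultures, so p-values measure only the spread between these libraries, which may be technical. With so small a spread many genes pass the threshold. Each count of members in the main fit of all libraries is given beside the percentage of all 16276 tested genes that passed. Counts after rescaling or from other fits have no such percentage. Mettl3 RNA at day 6 read 37.86 and 37.32 FPKM in KO and 36.33 and 35.11 in WT. An FPKM over the whole gene does not show a short deletion, so KO rests on the labels here.

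The core of the DNA element that HIF binds is usually written ACGTG or GCGTG. RefSeq promoter windows (GRCm38.p6, 250 bases before to 50 after the transcription start) were found for 31 of the 32 members, all but Slc2a3. ACGTG, read on both strands, occurred in at least 1 window of 22 of the 31 (71.0%), against 21.8% of 27025 genes. Either ACGTG or GCGTG occurred in 28 of the 31 (90.3%), against 46.7%. Genes with several starts have several windows, and counted per window 25 of the members' 45 held ACGTG, against 19.6% of all 32851. Such a match is a description of the letters and not a binding site. The members include known HIF targets, and the comparison genes were not matched for expression or base composition. The windows below belong to Egln3, Ankrd37 and P4ha2, the regulators and hypoxia targets with the 3 largest differences between KO and WT at day 2, and to Ldha, a textbook HIF target. For each gene the window with the most matches is shown, and a second Ldha window held no ACGTG. Capitals mark ACGTG or its reverse complement CACGT, and CACGTG counts once on each strand. All are written 5′ to 3′ along the gene's strand.
Egln3, chr12:54203825-54204124, minus strand, 1 match: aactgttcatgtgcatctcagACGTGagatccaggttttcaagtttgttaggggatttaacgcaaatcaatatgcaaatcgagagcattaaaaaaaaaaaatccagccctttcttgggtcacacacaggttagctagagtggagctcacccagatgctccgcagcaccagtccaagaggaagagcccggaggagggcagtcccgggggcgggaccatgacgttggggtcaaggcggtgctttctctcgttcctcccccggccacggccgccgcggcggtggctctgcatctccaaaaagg
Ankrd37, chr8:45999801-46000100, minus strand, 2 matches: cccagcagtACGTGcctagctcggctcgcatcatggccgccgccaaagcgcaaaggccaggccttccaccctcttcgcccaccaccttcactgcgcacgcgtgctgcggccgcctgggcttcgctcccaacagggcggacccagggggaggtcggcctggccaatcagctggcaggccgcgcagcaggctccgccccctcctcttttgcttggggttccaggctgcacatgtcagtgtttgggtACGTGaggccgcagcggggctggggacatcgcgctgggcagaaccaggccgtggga
P4ha2, chr11:54100674-54100973, plus strand, 2 matches: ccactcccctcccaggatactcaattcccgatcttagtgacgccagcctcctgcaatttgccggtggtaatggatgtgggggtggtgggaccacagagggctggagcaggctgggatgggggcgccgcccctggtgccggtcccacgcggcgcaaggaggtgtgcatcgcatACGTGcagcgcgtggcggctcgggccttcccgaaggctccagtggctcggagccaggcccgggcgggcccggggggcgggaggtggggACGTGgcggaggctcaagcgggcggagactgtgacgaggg
Ldha, chr7:46845554-46845853, plus strand, 5 matches: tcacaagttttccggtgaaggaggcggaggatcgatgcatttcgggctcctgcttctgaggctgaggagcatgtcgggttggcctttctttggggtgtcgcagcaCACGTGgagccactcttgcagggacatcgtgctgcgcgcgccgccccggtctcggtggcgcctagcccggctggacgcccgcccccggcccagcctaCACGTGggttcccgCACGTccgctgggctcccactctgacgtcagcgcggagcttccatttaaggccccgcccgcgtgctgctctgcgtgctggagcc
Relative to the start of the RefSeq window, the single Egln3 match began at -229, and the Ldha matches between -145 and -34. The bases after these Egln3 and Ldha starts were not found near the beginning of an annotated (GENCODE M21) transcript of the gene. Those of the second Ldha window were.

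The first question was how the members changed as WT stem cells became organoids. As a group they rose to day 4 and then declined. They made up 1.11 ± 0.0026% of all FPKM in stem cells (SD, n = 2). The share was 1.82 ± 0.006% on day 2, 2.52 ± 0.0056% on day 4 and 1.81 ± 0.011% on day 6. Gapdh, the glyceraldehyde phosphate dehydrogenase often used as a reference gene, supplied the greatest part. It was not constant, with 5132.68 and 4862.87 FPKM in stem cells and 6704.02 and 6661.55 on day 2. It reached 7916.47 and 7925.97 FPKM on day 4 and read 5138.9 and 5050.4 on day 6.

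Between days 0 and 2 in WT 31 members were called by limma at a Benjamini-Hochberg adjusted p under 0.05, 22 higher and 9 lower, where 63.4% of tested genes were called (27.4% higher, 36% lower). The median log2 change of the members was 0.86, and that of all genes was -0.03. Log2 changes are of FPKM + 1, which understates changes of low genes. Between days 2 and 4 all 32 were called, 28 higher and 4 lower, against 59.9% of genes (34.3% higher, 25.6% lower), with a member median of 0.70. Between days 4 and 6 there were 28 calls, 8 higher and 20 lower, against 66.7% of genes (41.7% higher, 25% lower), with a member median of -0.31. After rescaling the libraries by median-of-ratios factors these last calls were 6 higher and 24 lower. From day 0 to day 6 as a whole, 24 members rose and 5 fell, against 78.1% of genes (43.6% higher, 34.5% lower). Log2 changes of 1 or more were reached by 18 members between days 0 and 2 (11% of genes), 15 between days 2 and 4 (8.05%), 4 between days 4 and 6 (10%) and 20 over the whole course (28.1%). The mean level of 20 of the 32 was highest at day 4, of 6 at day 6, of 5 at day 0 and of 1 at day 2. Peak days were counted for the members alone, so whether this is particular to them was not tested.

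Among the transporters, Slc16a3 (MCT4, the lactate exporter of glycolytic cells) changed most. Its WT libraries read 12.84 and 9.71 FPKM in stem cells and 249.36 and 247.97 on day 2. They read 372.32 and 378.65 FPKM on day 4 and 140.39 and 144.21 on day 6. The rise to day 2 was 4.36 ± 0.07 on the log2 scale (SE, limma adjusted p = 2.95e-20), and no library of one day overlapped with another day. Ldha, which forms the muscle type subunit of lactate dehydrogenase, went from 414.23 and 410.01 FPKM at day 0 to 1898.59 and 1897.97 at day 2 and 3018.78 and 3010.37 at day 4. Ldha then fell to 1598.31 and 1598.2 FPKM at day 6. Bnip3, a HIF target in mitophagy, rose by 3.18 ± 0.03 to day 2 (SE, limma adjusted p = 2.77e-23), from 6.61 and 6.61 FPKM to 68.78 and 66.81. Pdk1, the kinase that shuts pyruvate dehydrogenase, ran the other way. Its WT libraries fell from 51.27 and 49.23 FPKM at day 2 to 16.87 and 16.93 at day 4 (-1.52 ± 0.03 on the log2 scale, SE, limma adjusted p = 3.77e-18).

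The other lines took the same general course, with differences in timing. In KO 26 members rose and 4 fell between days 0 and 2, against 65.6% of genes called (37.2% higher, 28.5% lower), with a median of 1.32. Between days 2 and 4 the KO calls were 19 higher and 11 lower (64.2% of genes, 35.5% higher and 28.7% lower), with a median of 0.24. Between days 4 and 6 they were 4 higher and 26 lower (65.3% of genes, 34.9% higher and 30.5% lower), with a median of -0.66. From day 0 to day 6 they were 23 higher and 7 lower (80.4% of genes, 45% higher and 35.4% lower). The KO members that changed by at least 1 numbered 19 to day 2, 2 to day 4, 12 to day 6 and 19 over the course, beside 12.6%, 8.46%, 11.1% and 31.9% of genes. In the fusion line without Dex the corresponding calls were 27 higher and 5 lower (67.9% of genes, 41.4% and 26.5%), then 27 and 4 (60.8%, 33.7% and 27.1%), then 2 and 25 (67.9%, 36.8% and 31.1%). Over its whole course 23 rose and 7 fell (81.9%, 48% and 33.9%). With Dex the calls were 25 higher and 5 lower (60.6%, 29.2% and 31.4%), then 23 and 4 (66.7%, 40.9% and 25.8%; 18 and 8 after rescaling), then 9 and 21 (65.1%, 37.4% and 27.7%). Over its whole course 25 rose and 6 fell (80.4%, 46.4% and 34%). The median of all genes over the whole course was 0.17 without Dex and 0.14 with it, and -0.03 and -0.01 after rescaling. Of the 32 members, 12 had their highest mean at day 4 in all 4 lines, with no count over all genes.

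**Figure D1:**
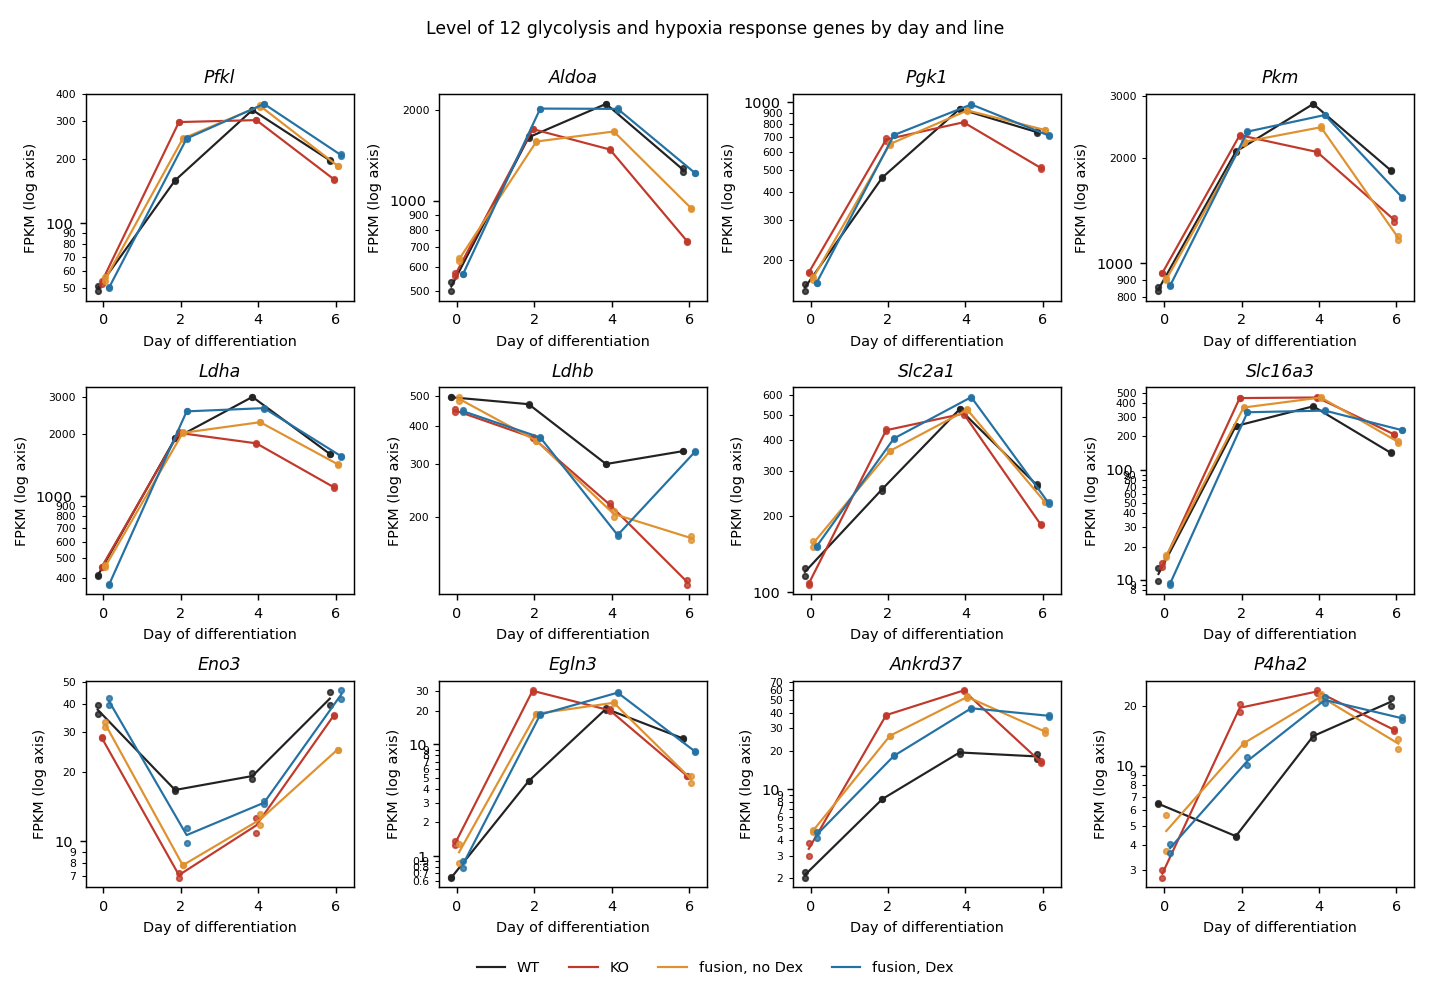
FPKM on a log axis against day of differentiation for 12 members in the 4 lines, with a point per library (2 per group) and a line through the group means. Most panels climb to day 2 or 4 and decline by day 6, and Ldhb runs downward in KO and in the fusion line without Dex. At day 2 the points of Egln3, Ankrd37 and P4ha2 lie above WT in KO and in both fusion cultures.

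Shares within enzyme and transporter families shifted over the same days. Ldhb, the heart type subunit, made up 54.6 ± 0.13% of Ldha plus Ldhb FPKM in WT stem cells (SD, n = 2). Its share was 19.9 ± 0.11% on day 2, 9.03 ± 0.0063% on day 4 and 17.1 ± 0.015% on day 6. Pfkp, the platelet type phosphofructokinase, supplied 63.1 ± 1.4% of the 3 phosphofructokinase genes at day 0 and 16.5 ± 0.65% at day 4. Pfkl, the liver type, went from 27.8 ± 0.87% to 76.6 ± 0.56%. Slc16a1 (MCT1) was 64.1 ± 3.7% of both lactate transporters at day 0 and 6.95 ± 0.22% at day 2. Its own level was between 18.08 and 21.51 FPKM in every WT library, so the share followed Slc16a3. Slc2a1 (GLUT1) was 44.7 ± 1.1% of both glucose transporters at day 0 and 84.1 ± 0.24% at day 2, when Slc2a3 (GLUT3) was at its WT minimum of 48.51 and 48.44 FPKM.

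**Figure D2:**
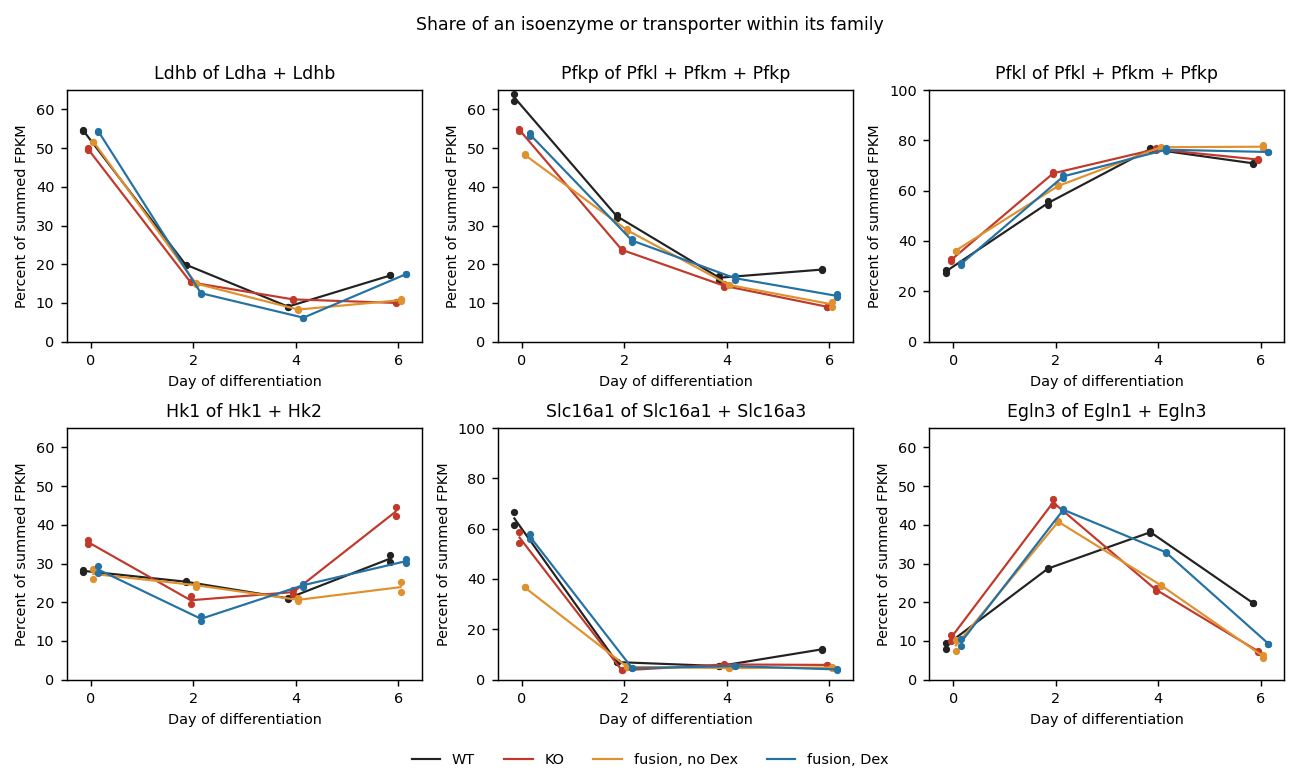
Share of a family's summed FPKM, in percent, held by 1 paralogue, against day of differentiation in the 4 lines (points: libraries, lines: group means). In WT Ldhb falls from 54.6% at day 0 to 9.03% at day 4, and at day 6 WT and Dex (17.4%) lie above KO (9.99%) and no Dex (10.7%).

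Enolase 1 must be read with caution. Eno1 transcripts share 1727 of 1736 aligned bases (99.5%) with the retrogene Eno1b, and reads of these genes may have been divided between them. In WT at day 6 Eno1b read 1156.88 and 1121.34 FPKM and Eno1 1047.53 and 1045.28. Their sum that day was 2204.41 and 2166.62 FPKM in WT and 1249.39 and 1248.17 in KO, so that both genes together were lower in KO. Other near copies in the table were low, the highest being Pgk1-rs7 at a mean of 35.61 FPKM beside 596.3 FPKM of Pgk1.

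The second question was how KO cultures differed from WT on the same day. The clearest difference was at day 2. There 30 members were called, 26 higher and 4 lower in KO, where 58.9% of all genes were called (37.5% higher, 21.3% lower). Their median log2 difference was 0.51, and that of all genes was 0.09. Of the members, 9 rose and 1 fell by at least 1 on the log2 scale, a size that 4.72% of genes reached. Rescaling kept 25 of these 30 calls with their sign and gave 21 higher and 5 lower and a member median of 0.39. The 10 regulators and hypoxia targets were all called higher, with a median of 1.09.

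Egln3 (PHD3, a HIF prolyl hydroxylase that is itself induced by HIF; GRCm38 chromosome 12, 54178981 to 54203860) differed most. Its libraries at day 2 read 30.87 and 29.72 FPKM in KO and 4.66 and 4.74 in WT, which is 2.46 ± 0.07 on the log2 scale (SE, limma adjusted p = 1e-15). Every KO library was several times the level of either WT library. Its relative Egln1 (PHD2, the main oxygen sensor of the pathway) read 35.32 and 36.38 FPKM in KO and 11.5 and 11.91 in WT (log2 difference 1.54). Ankrd37, an ankyrin repeat gene known as a HIF target, read 38.52 and 37.81 FPKM in KO and 8.4 and 8.32 in WT (2.06 ± 0.06). Both of these lie on chromosome 8, whose 858 tested genes had a median difference of 0.24 that day. Relative to that median the differences were 1.29 for Egln1 and 1.82 for Ankrd37.

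The collagen prolyl hydroxylase subunits were also higher in KO at day 2. P4ha2 read 18.7 and 20.35 FPKM in KO and 4.47 and 4.43 in WT (log2 difference 1.91 ± 0.10, SE). P4ha1 read 25.36 and 25.74 FPKM in KO and 12.03 and 11.79 in WT (1.04 ± 0.04). The groups did not overlap for either gene. Vegfa, the angiogenic growth factor, read 16.53 and 18.53 FPKM in KO and 8.24 and 8.3 in WT (1.00 ± 0.08, under 1 before rounding). Bnip3 read 142.07 and 137.21 FPKM in KO and 68.78 and 66.81 in WT (1.03 ± 0.03). Pfkfb3, which makes the activator of phosphofructokinase, read 11.96 and 11.24 FPKM in KO and 4.58 and 4.85 in WT (1.14 ± 0.05).

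The 16 glycolytic enzymes moved less at day 2, with 12 higher, 2 lower and a median of 0.20. Aldoc, the brain type aldolase, stood out with 33.77 and 34.13 FPKM in KO and 6.83 and 7.32 in WT (log2 difference 2.11 ± 0.06, SE, limma adjusted p = 1.67e-15). It still made up only 1.92 ± 0.022% of both aldolases in KO (SD, n = 2). Pfkl read 298.51 and 296.13 FPKM in KO and 159.17 and 158.26 in WT (0.90 ± 0.02). The most abundant enzymes differed little. Aldoa, Gapdh and Ldha were each called higher by 0.09 to 0.10, and after rescaling each was lower (Aldoa -0.03, Gapdh -0.02, Ldha -0.03) and not called. Pkm and Pfkp, called higher by 0.16 and 0.17, lost their calls after rescaling too. Eno3, the muscle type enolase, was the largest fall, at 7.27 and 6.92 FPKM in KO and 16.93 and 16.6 in WT (-1.13 ± 0.08). Eno2 was not called, and Hk1 (-0.03) was called only after rescaling, at -0.14. Among the transporters Slc2a3 read 102.68 and 102.44 FPKM in KO and 48.51 and 48.44 in WT (1.07 ± 0.02), and Slc16a3 was higher by 0.84.

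**Figure D3:**
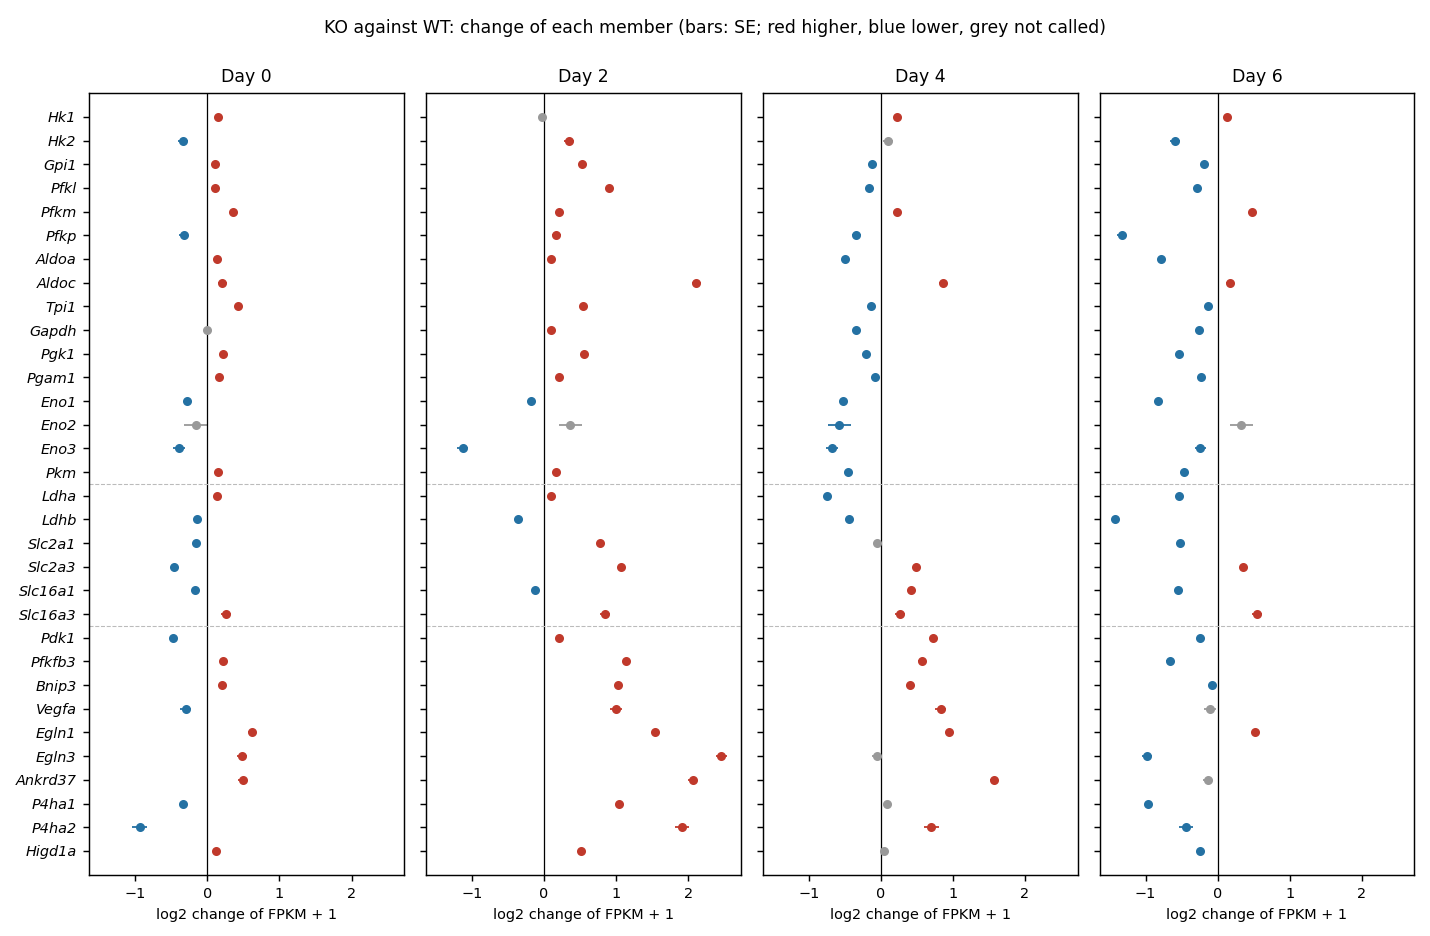
Log2 difference of FPKM + 1 between KO and WT for each of the 32 members at days 0, 2, 4 and 6 (bars: SE from limma; red higher, blue lower, grey not called; dashed lines divide enzymes, transport and regulators). At day 2 the regulators lie to the right of 0, up to 2.46 for Egln3, and at day 6 most members lie to the left, down to -1.42 for Ldhb.

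By day 4 the members had divided. Of 27 calls, 13 were higher and 14 lower in KO, against 60.5% of genes called (36.5% higher, 24% lower), and the member median was 0 (-0.10 after rescaling) beside 0.06 for all genes. Regulators and hypoxia targets were higher in 7 of 10 and lower in none, with a median of 0.64, while 12 of the 16 enzymes were lower and 3 higher, with a median of -0.18. Ankrd37 was the largest rise and the only member to reach 1, as 5.54% of genes did, at 60.23 and 58.92 FPKM in KO and 20.04 and 18.83 in WT (1.57 ± 0.06, or 1.23 relative to the chromosome 8 median). Ldha was the largest fall, at 1788.5 and 1807.99 FPKM in KO and 3018.78 and 3010.37 in WT (-0.75). Egln3 no longer differed beyond the spread, with 20.63 and 19.8 FPKM in KO and 20.58 and 21.21 in WT.

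At day 6 most members were lower in KO. There were 29 calls, 6 higher and 23 lower, against 65.1% of genes called (30.9% higher, 34.2% lower), with a member median of -0.26 and -0.03 over all genes. Ldhb (chromosome 6, 142490249 to 142507957) read 124.81 and 120.24 FPKM in KO and 330.29 and 329.76 in WT, a log2 difference of -1.42 ± 0.02 (SE, limma adjusted p = 1.5e-20). Pfkp (chromosome 13, 6579768 to 6648777) read 20.17 and 19.84 FPKM in KO and 51.32 and 52.03 in WT (-1.33 ± 0.06). The other members changed by less than 1, a size reached by 10% of genes. Egln3, the largest rise at day 2, was now lower in KO, at 5.19 and 5.23 FPKM against 11.48 and 11.1 in WT (-0.98 ± 0.07). P4ha1 was lower by 0.96 and Aldoa by 0.79, at 733.78 and 731.48 FPKM in KO and 1282.52 and 1250.2 in WT. Pkm, the pyruvate kinase of the last step, read 1344.44 and 1314.19 FPKM in KO and 1850.68 and 1839.05 in WT (-0.47). The 6 higher members included Slc16a3 as the largest rise, at 209.63 and 206.46 FPKM in KO and 140.39 and 144.21 in WT (0.54), and Egln1 (0.52, or 0.17 relative to chromosome 8).

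At day 0, in stem cells, 30 members were called, 18 higher and 12 lower in KO, against 48.2% of genes (18.4% higher, 29.8% lower), and none reached 1 on the log2 scale (1.37% of genes). A fit of these groups alone, which has fewer residual degrees of freedom, called 10, of which 4 were higher. The share of all genes in that fit was not counted. The largest fall was P4ha2, at 3.02 and 2.76 FPKM in KO and 6.41 and 6.52 in WT (-0.94), and the largest rise Egln1 (0.62).

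The KO and WT courses were then compared directly through interaction terms. From day 0 to day 2, 22 members rose more or fell less in KO and 4 did the reverse, 26 in all, against 48.9% of genes called (35.6% higher, 13.2% lower). This split became 19 and 8 after rescaling. A term of at least 1 was found for 7 members (4.65% of genes). The largest terms were P4ha2 at 2.85 ± 0.14 and Egln3 at 1.97 ± 0.10 (SE, limma adjusted p = 1.48e-11 and 9.24e-12). The P4ha2 term rests in part on its lower day 0 level in KO. From day 2 to day 4 the sign turned, with 25 of 29 called terms lower in KO, against 42.4% of genes called (20.4% higher, 22% lower). Egln3 had the largest, -2.50 ± 0.10, and 4 members passed 1 in size (3.05% of genes). Both sets of terms use the same day 2 libraries, with opposite signs, so the turn is not a separate result. Both were added after the data were seen. Over the whole course, from day 0 to day 6, 21 of 25 called terms were lower in KO, against 56.9% of genes (31.1% higher, 25.8% lower), 3 of them by at least 1 (10.2% of genes). All members together made up 2.07 ± 0.0074% of FPKM in KO at day 2, 2.11 ± 0.013% at day 4 and 1.38 ± 0.0038% at day 6 (SD, n = 2). In KO, 10 members had their highest mean at day 2 and 17 at day 4, again with no count over all genes.

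Genes of the same pathways outside the 32 were read from lists, as counts. Of all genes tested, 37.5% were called higher and 21.3% lower in KO at day 2, and 30.9% and 34.2% at day 6. Of 20 other hypoxia targets, 16 were higher and 1 lower in KO at day 2, with a median of 0.74, and 2 were higher and 13 lower at day 6, with a median of -0.36. Adm, which encodes the vasodilator adrenomedullin, averaged 20.79 FPKM in KO and 1.31 in WT at day 2 (3.24 ± 0.08, SE, limma adjusted p = 1.91e-16). Bhlhe40, a transcriptional repressor, averaged 14.32 and 2.21 FPKM (2.25). Ddit4, an inhibitor of mTORC1, averaged 211.36 and 53.66 FPKM (1.96). At day 6 Ndrg1 averaged 1.26 FPKM in KO and 7.85 in WT (-1.97), having been 1.93 higher in KO at day 2. Pgm1, phosphoglucomutase, averaged 49.6 FPKM in KO and 11.18 in WT at day 2 (2.05).

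The 11 HIF pathway components did not share that direction, with 4 higher and 4 lower in KO at day 2, and the share called higher was near that of all genes. Hif1a RNA was lower in KO, with means of 10.57 against 19.49 FPKM at day 2 (-0.83) and 15.03 against 24.19 at day 6 (-0.65). HIF1A is regulated mainly through protein stability, which RNA does not show. Epas1, which encodes HIF2A, averaged 0.2 FPKM in KO and 7.9 in WT at day 6 (-2.90). Cited2, which competes with HIF for its coactivators, averaged 339.88 FPKM in KO and 49.08 in WT (2.77). Vhl, the adaptor of HIF degradation, was not called at days 0, 2 and 6, and at day 4 was higher in KO by 0.28. Of 19 genes of pyruvate entry and the citrate cycle, 12 were lower and 2 higher in KO at day 6, with a median of -0.16.

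Cell type markers also differed between KO and WT, in directions that varied by list and day. At day 2 the 11 pluripotency markers summed to 2212.8 to 2255.9 FPKM in KO and 1963.5 to 1988.5 in WT. At day 6 they summed to 48.2 to 49.0 FPKM in KO and 140.9 to 146.1 in WT, while the 9 eye field and optic vesicle markers summed to 118.4 to 119.9 and 661.3 to 693.3. The 6 neuronal markers summed to 311.2 to 315.4 FPKM in KO and 47.3 to 49.7 in WT. In stem cells the neuronal sum was already 296.7 to 310.8 FPKM in KO and 337.3 to 340.7 in WT. This sum alone therefore does not mark neurons. The 6 neural crest markers summed at day 6 to 80.9 FPKM in both KO libraries and 3.8 to 4.1 in WT. The 10 extraembryonic endoderm markers summed to 46.9 to 47.9 FPKM in KO and 157.9 to 162.6 in WT at day 2, and to 71.1 to 71.8 and 427.1 to 431.7 at day 6. The eye field and optic vesicle sum was higher in KO at day 2, at 9.7 to 12.4 FPKM against 5.6 to 6.2 in WT. At day 6 the 6 neural progenitor markers summed to 762.6 to 763.2 FPKM in KO and 578.3 to 589.4 in WT. No marker of these lists was at 0 in all libraries. The part of cell composition in the members' differences was not tested, and in bulk RNA fewer cells of a type and less RNA per cell cannot be told apart.

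The third question was what the fusion changed in the absence of Dex. This comparison shares its KO libraries with the previous one. At day 2, 24 members were called, 2 higher and 22 lower without Dex than in KO, against 37% of genes called (14.8% higher, 22.2% lower), with a member median of -0.20. Aldoc was the largest fall, at 18.92 and 18.83 FPKM without Dex against 33.77 and 34.13 in KO (-0.81), and Slc16a1 the largest rise (0.20). At day 6, 29 were called, 20 higher and 9 lower, against 49% of genes (21.1% higher, 27.9% lower), with a median of 0.20. Hk2, the inducible hexokinase, was the largest rise, at 40.23 and 45.6 FPKM against 20.14 and 22.1 in KO (0.99), and Eno2, the neuronal enolase, the largest fall (-0.65). At day 0 there were 22 calls, 14 higher and 8 lower, against 49.1% of genes (19.3% higher, 29.8% lower), which became 22 and 5 after rescaling. Slc16a1 was the largest fall (-0.82). P4ha2 was the largest rise (0.54), at 5.67 and 3.77 FPKM without Dex against 3.02 and 2.76 in KO. It was 0.30 without no Dex replicate 1, where Slc2a1 was the largest at 0.48. At day 4 there were 18, 12 higher and 6 lower, against 26.7% (9.66% higher, 17% lower), which became 14 and 4. Ldha (0.34) and Slc16a1 (-0.40) were its extremes. No member reached 1 on any day, while 1.36%, 0.295%, 0.233% and 2.03% of genes did at days 0, 2, 4 and 6.

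The fourth question was what Dex changed in the fusion line. At day 6 the members were mostly higher with Dex. Of 24 calls, 22 were higher and 2 lower, against 42.7% of genes called (23.8% higher, 19% lower), with a median of 0.18 beside 0.01 over all genes. Rescaling left 22 and 2. None reached 1 on the log2 scale (1.52% of genes). Ldhb was the largest, at 329.01 and 327.65 FPKM with Dex and 172.93 and 168.77 without (0.94 ± 0.02, SE, limma adjusted p = 1.1e-16). Vegfa read 58.36 and 55.34 FPKM with Dex and 30.12 and 34.15 without (0.81). Eno3 read 42.11 and 46.02 FPKM with Dex and 25.21 and 25.19 without (0.78), and Egln3 8.49 and 8.82 against 5.26 and 4.53 (0.71). None of these groups overlapped. The 2 falls were Pdk1 (-0.14) and Pgk1 (-0.08). Of the 16 enzymes 12 rose and 1 fell, and of the 10 regulators and targets 7 rose and 1 fell.

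The earlier days were less one-sided than day 6, and their lean depended on the day and on rescaling. Rescaled, the members leaned lower with Dex in stem cells (median log2 difference -0.17) and higher on day 2 (0.13). The rescaled value for day 4 was 0.01. At day 0 there were 27 calls, 11 higher and 16 lower with Dex, against 43.4% of genes (27.3% higher, 16.1% lower), which became 8 and 19 after rescaling. Slc16a3 was the largest fall, at 9.38 and 9.04 FPKM against 16.05 and 16.87 (-0.77), and Bnip3 the largest rise (0.40). At day 2 there were 24, 13 higher and 11 lower, against 44.3% (12.7% higher, 31.5% lower), which became 17 and 8. Hk2 (0.49) and Ankrd37 (-0.50) were its extremes. At day 4 there were 26, 13 in each direction, against 40.2% (18.3% higher, 21.9% lower), between Eno2 (0.57) and Pdk1 (-0.45). No member reached 1 on these days, while 0.498%, 0.467% and 0.915% of genes did at days 0, 2 and 4. In the interaction of day 6 against day 0, 21 of 25 called members rose more or fell less with Dex. Of all genes, 48.7% were called (22.7% higher, 25.9% lower). These terms reuse the libraries of the day 0 and day 6 comparisons, so they are not a separate result. A term of at least 1 was found for 2 members (3.27% of genes), Slc16a3 at 1.13 ± 0.10 and Ldhb at 1.07 ± 0.03 (SE, limma adjusted p = 1.7e-08 and 5.88e-15). From day 2 to day 4, 7 of 17 called terms were higher with Dex and 10 lower, against 31.3% of genes called (20.7% higher, 10.5% lower), which became 5 and 15 after rescaling. None reached 1 (1.13% of genes).

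**Figure D4:**
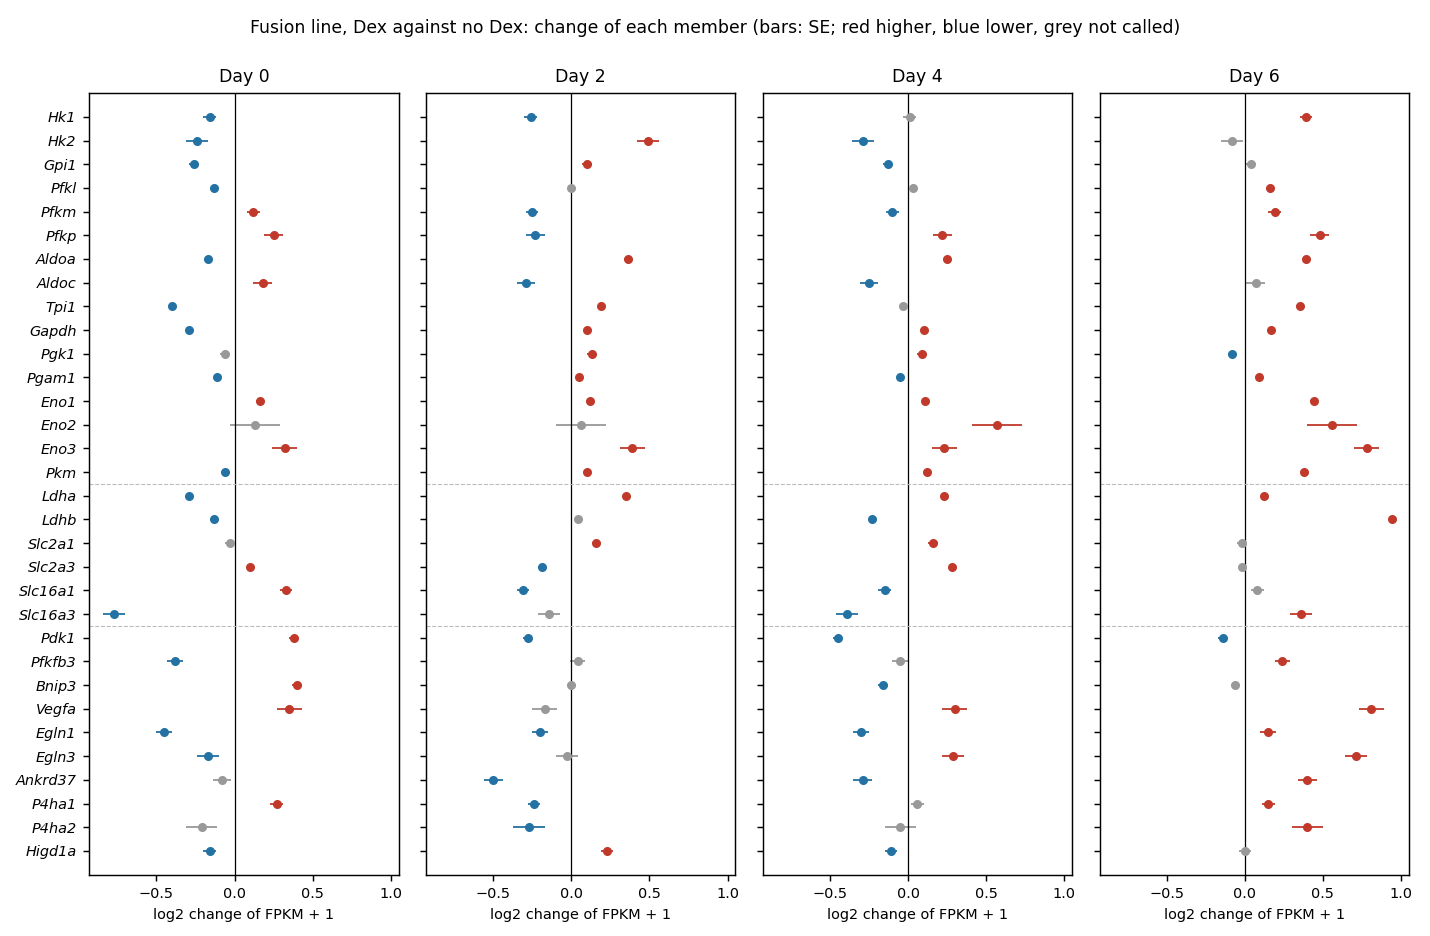
Log2 difference of FPKM + 1 between the fusion line with and without Dex for each of the 32 members at days 0, 2, 4 and 6 (bars: SE from limma; red higher, blue lower, grey not called). Points lie on both sides of 0 until day 4, and at day 6 nearly all called members lie to the right, up to 0.94 for Ldhb.

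Markers differed between the fusion cultures too. At day 6 the 9 eye field and optic vesicle markers summed to 455.5 to 458.6 FPKM with Dex and 183.6 to 186.9 without, the 6 neuronal markers to 152.2 to 153.5 and 255.3 to 255.5, and the 6 neural crest markers to 24.5 to 26.3 and 69.7 to 71.1. In stem cells the neuronal sum was already 309.5 to 311.8 FPKM with Dex and 314.5 to 321.5 without. The part of these markers in the Dex result was not tested. Of 6 serine synthesis genes, a branch from glycolysis, 5 were higher with Dex at day 6 and none lower, with a median of 0.45, against 23.8% of genes called higher and 19% lower. Among 20 other hypoxia targets 10 were higher and 3 lower, with Ndrg1 at a mean of 4.66 FPKM against 1.68 (1.08).

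Finally, Dex cultures were set beside WT, a comparison that shares its WT libraries with KO against WT. At day 2, 24 members were higher and 5 lower, against 29.4% of genes called (12.2% higher, 17.2% lower), with a median of 0.38. A rise of at least 1 was reached by 5 (0.977% of genes). They were Egln3, at 18.73 and 18.35 FPKM with Dex (1.78), P4ha2 at 11.04 and 10.14 (1.09), Ankrd37 at 18.41 and 18.1 (1.04, or 0.94 relative to chromosome 8), Aldoc at 16.05 and 14.6 (1.01) and Pfkfb3 at 10.45 and 10.47 (1.00). Eno3 was the largest fall (-0.61). At day 6, 14 were higher and 10 lower, against 61.4% of genes (29.2% higher, 32.2% lower), with a median of 0.06. Ldhb did not differ beyond the spread, at a log2 difference of -0.01, and Aldoa was at -0.03. Pfkp was lower than in WT, at 33.85 and 31.47 FPKM against 51.32 and 52.03 (-0.65). Ankrd37 was the largest rise, at 37.07 and 38.38 FPKM against 17.34 and 18.83 (1.02, or 0.67 relative to chromosome 8), and Slc16a1 the largest fall (-0.94). At day 4, 13 were higher and 7 lower, against 44.7% (25.7% higher, 19.1% lower), which became 11 and 12 after rescaling, between Ankrd37 (1.11, or 0.80 relative to chromosome 8) and Ldhb (-0.77). At day 0, 13 were higher and 14 lower, against 49.8% (19% higher, 30.8% lower), which became 17 and 12, between Ankrd37 (0.78) and Slc16a1 (-0.67). A fit of these day 0 groups alone called 17, with no share counted over all genes. Changes of at least 1 were made by Ankrd37 alone at days 4 and 6 and by no member at day 0, beside 2.01%, 5.9% and 1.7% of genes.

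The members' summed share of all FPKM, which abundant genes dominate, set the lines in order at day 6. It was 1.81 ± 0.011% in WT, 1.79 ± 0.00013% with Dex, 1.53 ± 0.0023% without Dex and 1.38 ± 0.0038% in KO (SD, n = 2). WT and Dex were next to each other, and the libraries of the 4 lines did not overlap. Gapdh alone, the largest part of the sum, gave another order. It made up 0.673% with Dex, 0.597% in WT, 0.594% without Dex and 0.497% in KO.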

How the data were processed

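Libraries of polyadenylated RNA (16 groups of 2) were read paired-end. The authors deposited FPKM with 2 decimals per gene, per the file headers and values; the submitters' processing notes name STAR, Cuffdiff and mm10, without versions or roles. Positions came from GENCODE M21 (GRCm38; 99.5% of rows matched), promoters from RefSeq.

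From the FPKM, log2(FPKM + 1) was fitted with limma 3.58.1 (R 4.3.3; 16 group means, 16 residual degrees of freedom, trend) for 16276 genes with at least 1 FPKM in at least 2 libraries, with p-values adjusted after Benjamini and Hochberg within each contrast (two-sided, threshold 0.05). On simulated data for KO against WT at day 6 (16276 genes, 200 changed by 1 on the log2 scale, 10 sets), 185.9 were recovered and 6% of calls were false. Depth was estimated from FPKM steps (89.3% to 92.3% of low values within 0.2 of a whole fragment, 40% by chance).

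The members and lists were chosen with earlier results of these data known. Named were members called with a change of at least 1 between lines or in an interaction, the 4 highest in WT at day 6, and the largest rise and fall per comparison; others were chosen after their values were seen. The interactions of day 2 against day 0 and of day 4 against day 2 were added after seeing the data. Alternatives were a pseudocount of 0.1, no filter, a mean of at least 5 FPKM, median-of-ratios rescaling, the replicate block, compared groups alone, chromosome centring, and each library left out.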

Additional observations from a re-analysis of the deposited data

Results flagged for a closer look

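Differences between lines that themselves changed over the days were picked out by interaction terms in limma, with Benjamini-Hochberg adjusted p under 0.05. From day 0 to day 6, 25 members changed differently in KO and WT (56.9% of genes did). Those past 1 on the log2 scale were Egln3 (-1.47), Ldhb (-1.28) and Pfkp (-1), each with a smaller gain or larger loss in KO. In the fusion line 25 members changed differently with and without Dex over the same days (48.7% of genes), with Slc16a3 (1.13) and Ldhb (1.07) past 1. The Slc16a3 term rests in part on its lower day 0 level with Dex.

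From day 0 to day 2, 26 members changed differently in KO and WT (48.9% of genes). P4ha2 (2.85), Egln3 (1.97), Aldoc (1.90), Ankrd37 (1.57), Slc2a3 (1.53), P4ha1 (1.38) and Vegfa (1.29) gained more or lost less in KO. The P4ha2, Slc2a3, P4ha1 and Vegfa terms rest in part on lower day 0 levels in KO. P4ha2 read 3.02 and 2.76 FPKM in KO and 6.41 and 6.52 in WT at day 0. From day 2 to day 4, 29 members changed differently in KO and WT (42.4% of genes). Egln3 (-2.50), Aldoc (-1.26), P4ha2 (-1.21) and Pfkl (-1.06) gained less in KO or fell there. These terms share their day 2 libraries with those from day 0 to day 2, with the opposite sign. From day 2 to day 4, 17 members changed differently with and without Dex (31.3% of genes), none by 1 or more. With 2 libraries per group no library could be tested as an outlier.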

How the results depend on the processing

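The count of called members stayed within 1.5 times its main value in every contrast and alternative run, except where the compared groups were fitted alone at day 0: KO against WT gave 10 in place of 30, and Dex against WT 17 in place of 27. No share of all genes was counted for these fits, which have fewer residual degrees of freedom. The 37 member results with a rounded change of at least 1 between lines or in an interaction kept sign and call throughout. Smaller changes were checked under rescaling, and the largest rise and fall per comparison of lines also with each library left out. Some of these extremes then passed to another member. Without no Dex replicate 2 at day 4, Eno2 (0.5) replaced Ldha as the largest rise over KO. Without KO replicate 1 at day 4, Eno3 (-0.78) replaced Ldha as the largest fall against WT. The members' median moved by more than the spread between duplicates in 55 cases under other settings and in 20 with 1 library left out. After rescaling it went from 0.07 to 0.19 for no Dex against KO at day 0, from 0.36 to 0.20 for Dex between days 2 and 4, and from 0 to -0.10 for KO against WT at day 4. Median changes near 0 did change sign. For Dex against no Dex at day 2 (0.02) the median was -0.02 without no Dex replicate 1 and -0.01 without Dex replicate 2, with 0.03 as the highest over libraries left out. At day 4 (-0.01) it was 0.01 after rescaling, without no Dex replicate 2 and without Dex replicate 1. The cause was not tested. Replicate numbers did not pair libraries, since duplicate differences of 120 pairs of groups correlated between -0.09 and 0.13; with the replicate block KO against WT gave 30, 30, 27 and 29 members at days 0, 2, 4 and 6, and all other counts stayed within 1.5 times. Rescaling moved the median of all genes by over 0.1 in contrasts over days, for example from 0.17 to -0.03 in the fusion line without Dex between days 0 and 6. The range of 0.034 to 0.063 FPKM is what a count of 0 allows and does not bound the error of low values above it. Eno2, low at day 0, had a coefficient of variation of 32.9% between the WT duplicates of that day.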
